A study of Mus musculus with 2 samples.

Results

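The genes described here are the 105 rows of the listed genes whose symbol consists of Gm and a number, out of 4788 protein-coding genes listed as higher in an RNA immunoprecipitation (RIP) of FMRP than in its input. They were chosen by symbol alone and stand for 104 symbols, because *Gm7073* is listed on the X chromosome and again on an alternate sequence of the assembly. Both libraries came from testis of adult male wild type mice. The input was RNA kept from the lysate before the precipitation, and the FMRP RIP was RNA recovered with an antibody against FMRP. The labels and the RIP methods give no strain, number of animals or pooling, no library of a control antibody was used here, and with 1 library per group no difference has a replicate check or a test.

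A Gm number is the provisional symbol that mouse nomenclature gives to a gene predicted from the genome sequence, kept until a name based on function or homology is assigned. Such symbols cover unnamed genes, members of amplified families and models that join neighbouring genes into a readthrough transcript. FMRP, the product of *Fmr1*, is an RNA-binding protein known best as a repressor of translation in neurons, and its loss causes fragile X syndrome, of which enlarged testes are a known feature.

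The values are CPM, a gene's reads relative to the total of its library, and the totals were 30849871 input reads and 36506932 reads for the FMRP RIP, called the RIP from here on. The RIP was set against the input as log2((FMRP RIP CPM + 1)/(input CPM + 1)), called the log2 ratio here, which understates the change of genes with few reads. Intervals are exact Clopper-Pearson intervals of the CPM ratio at 95% and cover counting error only. Many values correspond to fractions of a read, as when a read that fits several genes is divided between them. A gene is said to hold split reads where its value in either library is not a whole number of reads, and whole reads otherwise.

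Most of these genes did not have a whole number of reads. Split reads were found in 78 of the 105 Gm-numbered genes (74.3%) and in 25.8% of the other listed genes. By position, 36 overlapped another protein-coding gene on the same strand and 9 overlapped one on the opposite strand only. A further 22 had a copy, meaning nearly always a promoter window at least 80% identical to that of a protein-coding gene elsewhere, and the remaining 38 had neither. Overlap was taken from gene spans, so a shared span does not show a shared exon. Of the 38, 17 had whole reads and 21 had split reads, and 16 of those 21 had no promoter window to compare.

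The sequences before the start show how alike the promoter windows of copies can be. Each line gives the 250 bases before the annotated start (RefSeq, GRCm38.p6), and capitals mark the bases that differ from the line above within the aligned stretch. *Gm14632* (chrX:30329490-30329739, plus strand) and *Gm10147* (chrX:28607875-28608124, minus strand) are shown because the table gives them identical values and their windows differ at 1 of 250 bases.
Gm14632: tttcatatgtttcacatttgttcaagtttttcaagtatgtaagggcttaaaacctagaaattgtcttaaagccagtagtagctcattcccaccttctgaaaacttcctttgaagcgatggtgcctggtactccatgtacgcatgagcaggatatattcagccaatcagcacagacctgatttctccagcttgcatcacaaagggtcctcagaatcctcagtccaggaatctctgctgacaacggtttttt
Gm10147: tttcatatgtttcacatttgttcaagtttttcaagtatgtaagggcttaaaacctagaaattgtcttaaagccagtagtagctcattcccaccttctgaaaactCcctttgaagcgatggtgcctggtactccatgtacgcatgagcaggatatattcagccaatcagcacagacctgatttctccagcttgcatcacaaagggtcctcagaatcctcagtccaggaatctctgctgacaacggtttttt
*Gm32687* (chr10:81863641-81863890, plus strand) is shown with *Zfp433* (chr10:81704575-81704824, plus strand), a zinc finger gene whose window differs at 1 of 207 aligned bases.
Gm32687: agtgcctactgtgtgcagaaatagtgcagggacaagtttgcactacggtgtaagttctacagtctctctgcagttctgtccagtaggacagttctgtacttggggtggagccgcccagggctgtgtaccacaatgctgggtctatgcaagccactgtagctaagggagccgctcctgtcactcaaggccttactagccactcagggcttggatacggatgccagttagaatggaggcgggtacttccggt
Zfp433: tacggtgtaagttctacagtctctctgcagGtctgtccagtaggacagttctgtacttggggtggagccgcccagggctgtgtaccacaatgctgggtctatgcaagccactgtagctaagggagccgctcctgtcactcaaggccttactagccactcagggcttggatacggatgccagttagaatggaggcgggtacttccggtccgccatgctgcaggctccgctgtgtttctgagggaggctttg
*Gm3012* (chr14:3634256-3634505, plus strand) stands for a chromosome 14 family. Its window has no difference from that of *Gm10413* over 244 aligned bases, from *Gm5795* over 215 or from *Gm8279* over 181.
Gm3012: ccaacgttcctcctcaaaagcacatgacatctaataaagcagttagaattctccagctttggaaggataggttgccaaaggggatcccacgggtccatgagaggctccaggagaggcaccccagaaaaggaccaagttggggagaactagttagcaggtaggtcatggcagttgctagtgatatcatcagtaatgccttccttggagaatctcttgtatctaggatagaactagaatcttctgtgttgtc
*Gm20716* (chr2:168230380-168230629, minus strand) stands for the readthrough models. It starts at the same base as *Dpm1*, the catalytic subunit of dolichol-phosphate mannose synthase, so that both have the same window.
Gm20716: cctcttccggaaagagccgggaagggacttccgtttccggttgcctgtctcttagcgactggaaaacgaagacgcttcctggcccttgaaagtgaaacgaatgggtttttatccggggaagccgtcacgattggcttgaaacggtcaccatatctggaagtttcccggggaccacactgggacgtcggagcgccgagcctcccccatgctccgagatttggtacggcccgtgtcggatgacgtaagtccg

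As a group, the Gm-numbered genes were low in the input. Their median was 1.14 CPM in the input against 5.26 CPM in the RIP, and 47 of them (44.8%) lay under 1 CPM in the input, against 10.7% of the other listed genes. The median log2 ratio was 1.27, with quartiles of 0.85 and 2.07 and a range from 0.48 to 5.61, and that of the other listed genes was 1.35. A log2 ratio above 1 was reached by 68 of 105 (64.8%), where 70.1% of all listed genes reached it. At least 1.5-fold with the pseudocount was reached by 98 (93.3%), where 97.3% of all listed genes did. These shares lie near those of the whole list and are not a result about the Gm-numbered genes.

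Split by input level, the medians lay in no constant order. Under 1 CPM in the input, the median log2 ratio was 1.33 over 47 Gm-numbered genes and 0.97 over 501 others, with median inputs of 0.357 and 0.583 CPM. From 1 to under 10 CPM it was 1.13 over 43 and 1.29 over 1880, with median inputs of 2.14 and 3.89 CPM. From 10 to under 100 CPM it was 1.57 over 15 and 1.54 over 2000. Split reads were held by 41 of the 47 lowest Gm-numbered genes and by 1 in 4 of the 501 others. Neither these differences nor the part of split reads in them was tested.

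The summed level of the 105 genes was 560.6 CPM (input) and 3556 CPM (RIP), a rise from 0.395% to 0.644% of the listed CPM. A few genes carried most of it, since the 10 highest held 72.2% of the sum in the RIP. For comparison with other provisional symbols, RIKEN cDNA names, 102 rows, had a median log2 ratio of 1.39 and split reads in 23.5%. The 7 rows named after a clone accession had a median of 1.59, and all 7 held split reads.

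**Figure D1:**
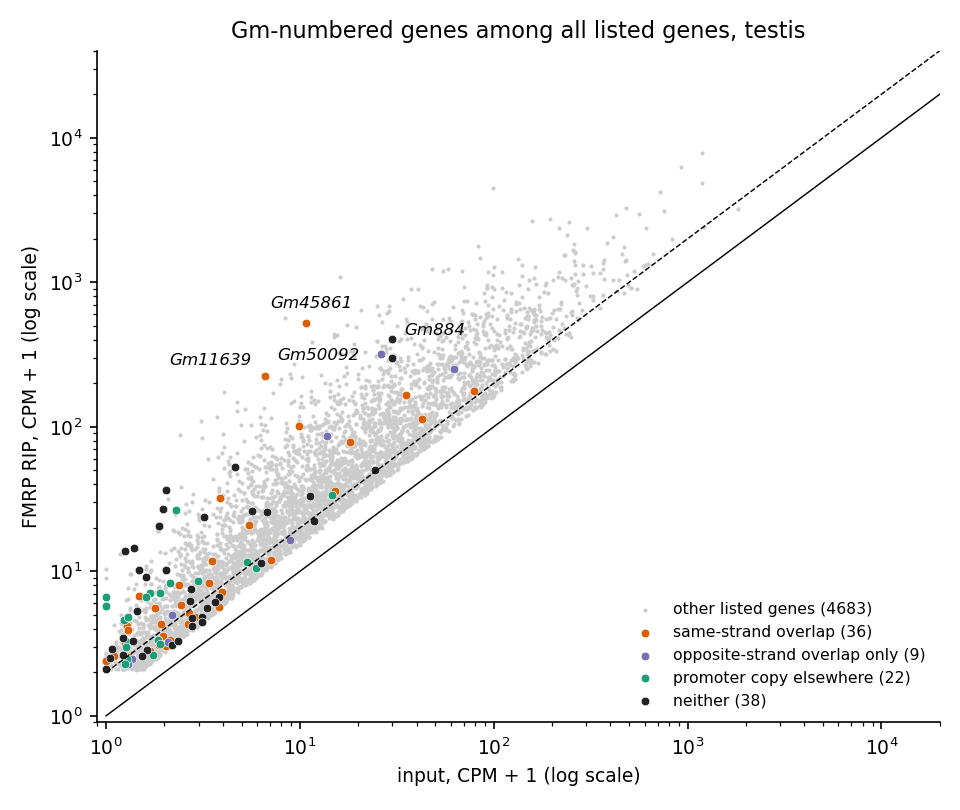
CPM + 1, input on the x axis and FMRP RIP on the y axis, both on log scales, for every listed gene. Grey points are the 4683 other listed genes, coloured points are the 105 Gm-numbered genes by class, the solid line marks equal values and the dashed line a log2 ratio of 1. Most Gm-numbered genes lie at low input, and Gm45861 and Gm11639 stand far above the dashed line.

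The 17 genes with whole reads, no overlap and no detected copy do not rest on divided reads. However, *Gm382* and *Gm732* had no promoter window in which a copy could be looked for. *Gm13941* and *Gm15130*, which match a single RefSeq gene, were not compared with each other. *Gm30083* had no overlap by its listed span, but its RefSeq span shares 146 bases with *Gm5460* on the opposite strand. The 17 had a median log2 ratio of 2.33 and a median input of 2.14 CPM. Of them 15 were above 1 (88.2%), against 70.1% of all listed genes. They include *Gm13941* and *Gm15130*, which are parts of a single locus. The 21 with split reads had a median of 0.86, with 10 above 1 (47.6%). This division was made after the values were seen. The input level differed as well, with a median of 0.627 CPM for the 21, and its part in the gap was not tested. Over all Gm-numbered genes the medians were 1.92 with whole and 1.26 with split reads, and over the other listed genes of any class they were 1.33 and 1.42. The difference between these gaps was not tested.

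*Gm13941* and *Gm15130* were the highest of these 17. RefSeq gives both symbols as older names of a single gene, *A26c3*, and the table lists the models next to each other on chromosome 2, so they are treated here as parts of 1 locus. *Gm13941* (chr2:111088372-111105982) had 32 input reads and 1288 RIP reads, or 1.04 and 35.3 CPM, a log2 ratio of 4.15 with an interval of 24.0 to 49.9 for the CPM ratio. *Gm15130* (chr2:111134114-111152936) had 30 and 953 reads, or 0.972 and 26.1 CPM, with a log2 ratio of 3.78.

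Among the 17 were 4 genes of the X chromosome. *Gm382* (chrX:127039972-127063986) rested on 8 input reads, with 472 in the RIP, and its log2 ratio was 3.47 with a wide interval of 25.1 to 116.2. *Gm732* (chrX:107945735-107948465) had 27 and 712 reads and a log2 ratio of 3.45. *Gm595*, named *Fsip2l* in RefSeq after the fibrous sheath-interacting protein gene *Fsip2* of the sperm tail, had 12 and 489 reads and a log2 ratio of 3.37. *Fsip2* itself is listed too, at 305.2 CPM in the RIP, with a log2 ratio of 3.30. In contrast *Gm14569*, which carries the synonym *Kiaa1210*, had 23.4 and 48.8 CPM and a log2 ratio of 1.03, although its 721 input reads fix the ratio to between 1.92 and 2.28.

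Genes with a coiled-coil synonym, a protein fold of wound helices, were also high. *Gm8251* (*Ccdc168*, chr1:44055872-44079746) had an input of 3.60 CPM and a RIP level of 51.9 CPM, a log2 ratio of 3.52. *Gm6657* (*Ccdc196*, chr12:78194242-78209029) had 2.20 and 22.7 CPM and a log2 ratio of 2.89. The best measured gene of the 17 was *Gm39566* (chr11:69810965-69815298), with 894 input reads and 10859 RIP reads. Its level was 29.0 and 297.5 CPM, its log2 ratio 3.32 and its interval 9.59 to 11.0. *Gm4924* and *Gm136* had log2 ratios of 2.33 and 2.20, *Gm30083* 1.92, *Gm973* 1.57, *Gm11634* 1.46 and *Gm12695* 1.20. At the low end stood *Gm550* at 0.92 and *Gm28729* at 0.49, the latter with 2.14 and 3.42 CPM and an interval of 1.18 to 2.19.

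*Gm884*, with the synonym *LRRC37* for a leucine-rich repeat protein, had the second highest level in the RIP of all 105. It went from 28.9 CPM to 403.3 CPM, a log2 ratio of 3.76 with an interval of 13.0 to 14.9. It held split reads, at 891.73 (input) and 14721.48 (RIP), although no overlap or promoter copy was found. Of the other 20 with neither overlap nor copy and with split reads, *Gm17067* had 0.486 and 9.13 CPM and a log2 ratio of 2.77, and *Gm21882* on the Y chromosome had 0.606 and 8.10 CPM and 2.50. The lowest value of all 105 was that of *Gm47189*, on chromosome 14, with 41.31 and 82.97 reads and a log2 ratio of 0.48.

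**Figure D2:**
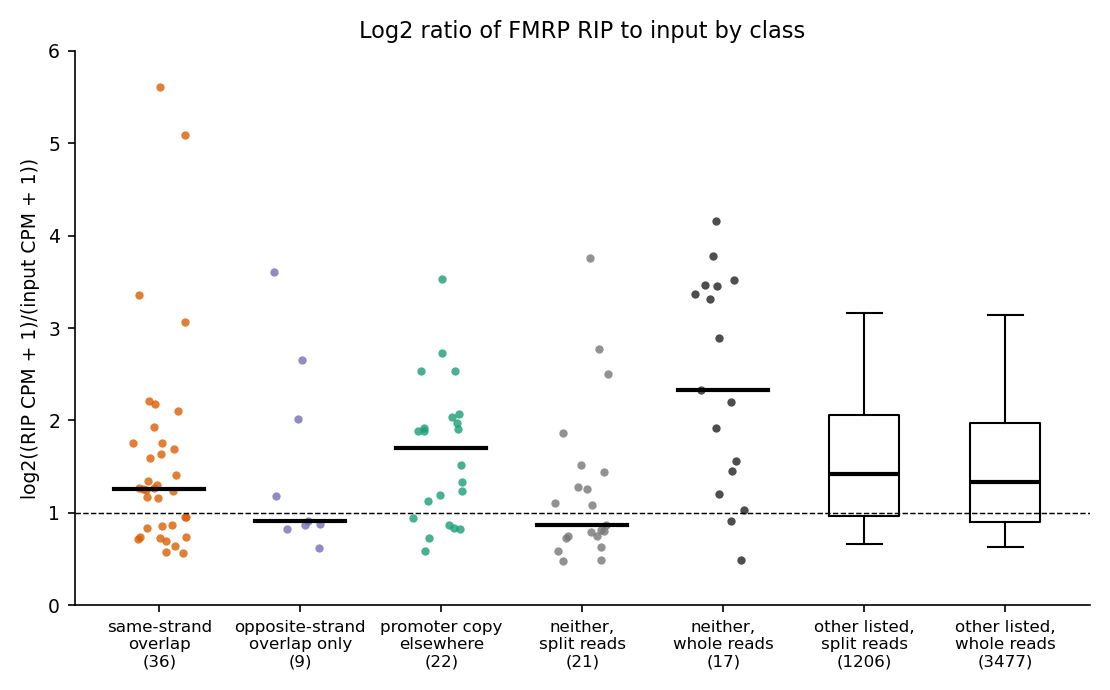
Log2 ratio (y axis) of the Gm-numbered genes by class, 1 point per gene with the median as a bar, and of the other listed genes as boxes (median, quartiles, whiskers from the 5th to the 95th percentile). The dashed line marks a log2 ratio of 1, and the 17 genes with neither overlap nor copy and with whole reads have the highest median, 2.33. Whole and split reads were told apart after the values were seen.

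Genes that overlap a neighbour on the opposite strand only were 9, with a median log2 ratio of 0.91. Of these, 4 were above 1 (44.4%), against 70.1% of all listed genes. The strand setting of the counting was not given in the sources used here, so reads from the partner strand cannot be told apart from their own. *Gm50092* (chr7:24510483-24512455) lay wholly within the span of the zinc finger gene *Zfp428*, which is not among the listed genes, and had 25.3 input CPM and 319.3 RIP CPM, a log2 ratio of 3.61 with an interval of 11.8 to 13.6. *Gm30302* (chr13:49784765-49799001) had 12.8 and 86.0 CPM and a log2 ratio of 2.65. *Gm17359* (chr3:79336661-79464129) had 61.4 and 250.7 CPM and a log2 ratio of 2.01, and its partner *Fnip2*, a folliculin-interacting protein gene, had 4.41 and 11.9 CPM and 1.25. The other 6 lay between 0.62 and 1.19, and 8 of the 9 had whole reads.

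The 36 same-strand overlaps had a median log2 ratio of 1.26, with 23 above 1 (63.9%, against 70.1% of all listed genes). Split reads were held by 35 of them. Where a gene overlapped at least 2 same-strand genes the median was 1.59 over 15 genes, and with 1 such partner it was 1.17 over 21. The 15 are not all readthrough models, since *Gm4787* lies inside its partners. For 7 of the 21 the strand of a further overlapping gene was not known. The 2 highest log2 ratios of all 105 genes came from this class.

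*Gm45861* (chr8:27447100-27620917) had 298.99 input reads and 19049.39 RIP reads, or 9.69 and 521.8 CPM. Its log2 ratio of 5.61 was the 3rd highest of the 4788 listed genes, with an interval of 48.0 to 60.6. It shares 47503 bases with *Poteg*, a gene of the POTE ankyrin domain family, which had 16.4 and 42.2 CPM and a log2 ratio of 1.32. The gene thus took 37.2% of the input reads of the locus but 92.5% of its RIP reads. Summed over both, the locus went from 803.73 to 20591.36 reads, a log2 ratio of 4.38.

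*Gm11639* (chr11:104685707-105117394) had 172.96 and 8189.74 reads, or 5.61 and 224.3 CPM, and a log2 ratio of 5.09, the 8th highest of the list. *Efcab3*, an EF-hand calcium-binding protein gene, shares 53803 bases with it and had 33.7 and 137.1 CPM and a log2 ratio of 1.99. Neither had whole reads, yet their sums were whole, at 1212 input reads and 13195 RIP reads. The sum had a log2 ratio of 3.17 with an interval of 8.67 to 9.77.

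In 18 such loci, the Gm-numbered gene could be set beside the listed genes it shares a strand and span with, *Gm20388* left out. Reads of a locus are, here and above, those of its listed genes only. Overlapping genes that are not listed are missing from them, such as *Dpm1* at *Gm20716*, *Umad1* at *Gm45062* and *Efcab13* at *Gm11639*. None of the 18 held whole reads alone, while in 4 loci the sum was whole in both libraries. Besides *Gm11639* these were *Gm43951* with *4933427D14Rik* (510 and 2349 reads), *Gm49496* with *Gpbp1* (859 and 6129 reads) and *Gm49394* with *Igf2*, the insulin-like growth factor 2 gene (83 and 324 reads). Where a sum is whole, it does not depend on how reads were divided between these genes, whereas the log2 ratio of each gene alone does.

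The gene's share of the locus was higher in the RIP in 10 of the 18 loci and lower in 8. *Gm45711*, which overlaps the MARVEL-domain genes *Cmtm1* and *Cmtm2a*, had 8.85 and 100.3 CPM and a log2 ratio of 3.36, while its share of the locus was 3.15% and 14.7% and the log2 ratio of the sum was 1.28. *Gm45062*, which overlaps *Glcci1*, had 2.87 and 31.4 CPM and a log2 ratio of 3.07, against 1.64 for the sum. By arithmetic, the share falls where the listed neighbours together had the higher CPM ratio. *Gm20716*, which RefSeq lists under the synonym *Dpm1-adnp* as a long non-coding RNA, had 34.5 and 163.7 CPM and a log2 ratio of 2.22. *Adnp*, a homeobox transcription factor gene, had 5.21 and 86.9 CPM and 3.82, and the share of *Gm20716* was 86.9% of the input reads of the locus and 65.3% of the RIP reads.

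*Gm49361* overlaps *Lats2*, a kinase gene of the Hippo pathway, and *Xpo4*, a nuclear transport receptor gene. It had 17.2 and 77.1 CPM and a log2 ratio of 2.10, between *Lats2* at 3.02 and *Xpo4* at 1.34, and its share of the locus was 23.9% and 22.0%. *Gm38394* had a log2 ratio of 0.74, from 6.11 and 10.9 CPM. Its partners, *Zc3h11a* and *Zbed6*, had 3.12 and 2.54, and the share of *Gm38394* was 51.1% (input) and 15.9% (RIP). *Gm43518*, with *Ccdc62* and the translation factor gene *Denr*, had 0.74 alone and 2.40 as a sum. All 18 sums had a log2 ratio above 1 with a median of 1.81, but every partner was on the list because it was called higher.

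**Figure D3:**
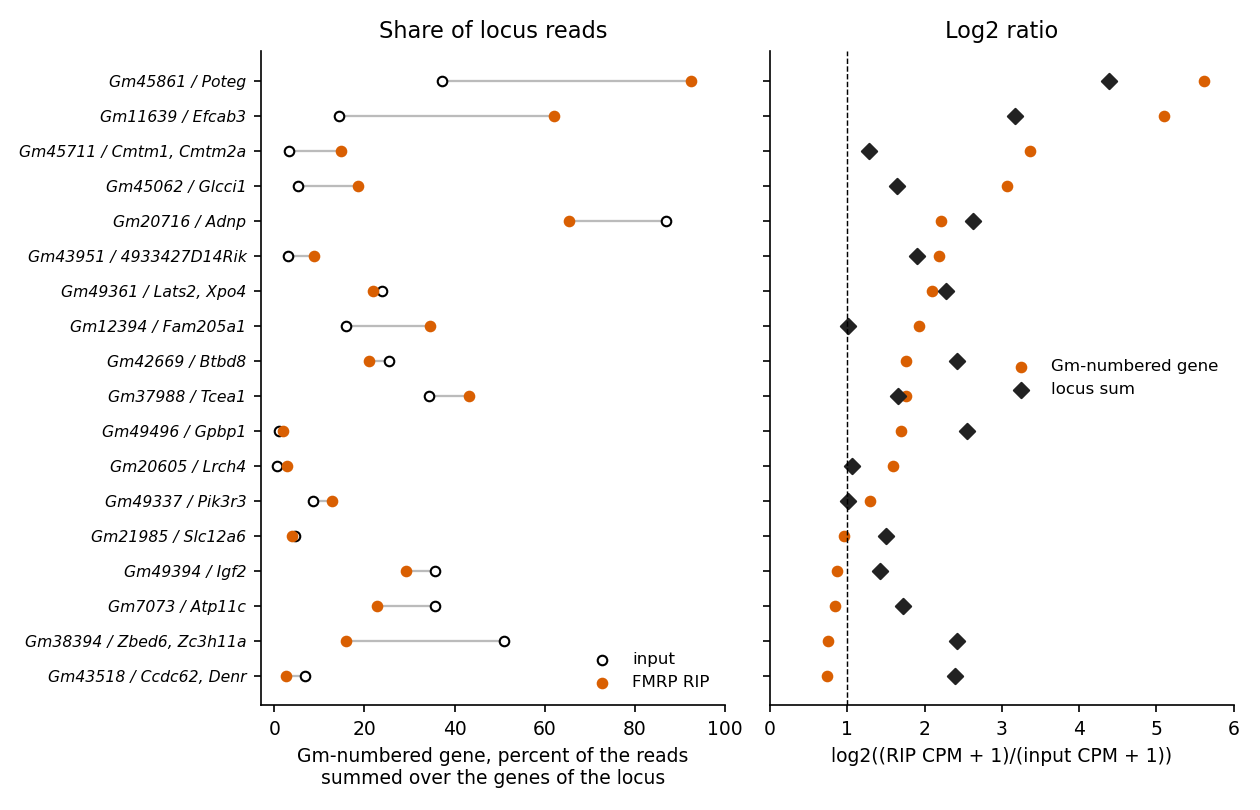
Left, the percent of the reads of a locus (x axis) given to the Gm-numbered gene, for input (open) and RIP (filled), for 18 loci named by the gene and its listed same-strand partners. Genes that are not listed are left out of the reads of a locus. Right, the log2 ratio (x axis) of the gene (circle) and of the sum over the locus (diamond), with the dashed line at 1. The share of Gm45861 rises from 37.2% to 92.5%, and that of Gm38394 goes from 51.1% to 15.9%.

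The other same-strand overlaps had partners that are not on the list. *Gm49336* shares its span with *Nupl1* and had 41.6 and 111.9 CPM, a log2 ratio of 1.41. *Gm4787*, the ADAM protease family gene *Adam4b*, lies within the spans of *Cox16* and *Gm20498* and had the highest input level of all 105, 78.4 CPM, with 176.1 CPM in the RIP and a log2 ratio of 1.16. Readthrough names in RefSeq were also carried by *Gm20605* (*Lrch4-sap25*), with a log2 ratio of 1.59, and by *Gm28042* (*Jmjd7-pla2g4b*), with 0.58. *Gm20388* is a model of 4434.9 kb on chromosome 8 that overlaps 76 protein-coding genes, 23 of them listed. It had 91.52 and 225.37 reads and a log2 ratio of 0.85.

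Copies formed the class with the lowest median input, 0.713 CPM. Its median log2 ratio was 1.70, with 16 of 22 above 1 (72.7%, against 70.1% of all listed genes). Split reads were held by 21 of the 22. Because genes of like sequence can share reads, each group of copies was also summed over its listed members. Only promoter windows were compared, so it was not tested whether the transcripts of a group are alike enough to share reads. Copies that are not on the list are missing from these sums. Each summed copy was on the list because it was called higher, so a CPM ratio above 1 was fixed in advance.

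The group with the most listed members was on the X chromosome. *Gm14632*, *Gm10147*, *Gm10487*, *Gm4836* and *Gm10488* belong to 26 genes with like windows, among them *Slx*, a gene amplified on the mouse X chromosome and active in spermatids, whose window is between 94.9% and 95.3% identical to theirs. *Gm14632* and *Gm10147*, shown above, were at 0 in the input, and each had 175.20 RIP reads, 49.4-fold over a floor of 3 input reads. The lower interval bound of the CPM ratio was 39.7 for each. *Gm10487* had 8.80 and 81.79 reads and a log2 ratio of 1.33. *Gm4836*, whose window of 300 bases is identical to that of *Gm10487*, had the same 8.80 input reads but 53.85 in the RIP and a log2 ratio of 0.94. *Gm10488* had 27.99 and 78.72 reads and 0.73. The 5 summed to 45.6 and 564.8 reads, a CPM ratio of 10.5 with an interval of 7.68 to 14.3 and a log2 ratio of 2.73. The log2 ratios of the single copies, from 0.73 to 2.54, depend on the pseudocount at such low levels. Without one, *Gm10487* was at 2.97, *Gm4836* at 2.37 and *Gm10488* at 1.25.

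The chromosome 14 family counted 35 like windows, of which 4 genes were listed. *Gm3012* and *Gm10413*, alike over the window printed above, had identical values of 27.83 and 220.98 reads and a log2 ratio of 1.89. *Gm8279* had 18.76 and 205.32 reads and 2.04, and *Gm5795* 60.86 and 273.84 reads and 1.52. Their sum was 135.3 and 921.1 reads, a CPM ratio of 5.75 with an interval of 4.81 to 6.96. Chromosome 14 held 19 of the 105 genes (18.1%), against 3.20% of the other listed genes, and 17 of the 19 had split reads. Only 4 of the 19, those of this family, had a detected copy.

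Zinc finger genes, which encode DNA-binding proteins and occur in clusters of recent copies, were the family matched most often, with 7 Gm-numbered genes and a median log2 ratio of 1.97. All 7 were matched only by a promoter window like that of a zinc finger gene, and none by name. *Gm32687* was at 0 in the input but at 5.62 CPM in the RIP, 57.8-fold over the floor, and the lower interval bound of its CPM ratio was 46.5. *Zfp433*, with the like window shown above, had 0.713 and 7.22 CPM. The sum was 22 and 469 reads, both whole, and a CPM ratio of 18.0 with an interval of 11.8 to 29.0. *Gm7072* had 1.30 and 25.5 CPM and a log2 ratio of 3.53, and with *Zfp994* the CPM ratio was 18.4 (13.8 to 25.2). *Gm6871* with *Zfp936*, *Zfp975* and *Zfp977* also had 18.4 (13.2 to 26.5). Lower sums were those of *Gm13212* with *Zfp981* at 12.7, of *Gm4631* and *Gm14295* at 7.41, and of *Gm10130* with *Zfp442* and *Zfp937* at 6.74. Families could be looked for only through RefSeq symbols, synonyms and promoter windows, and 38 of the 105 genes had no RefSeq match and 50 no window. Within that limit coiled-coil names matched 2 genes, and windows like that of *Slx* matched 5. No match was found to *Speer*, *Ssty*, *Rhox*, *Mage*, *Prame*, histone, ribosomal protein, kinesin or tubulin, transmembrane, olfactory or vomeronasal, or ubiquitin names.

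**Figure D4:**
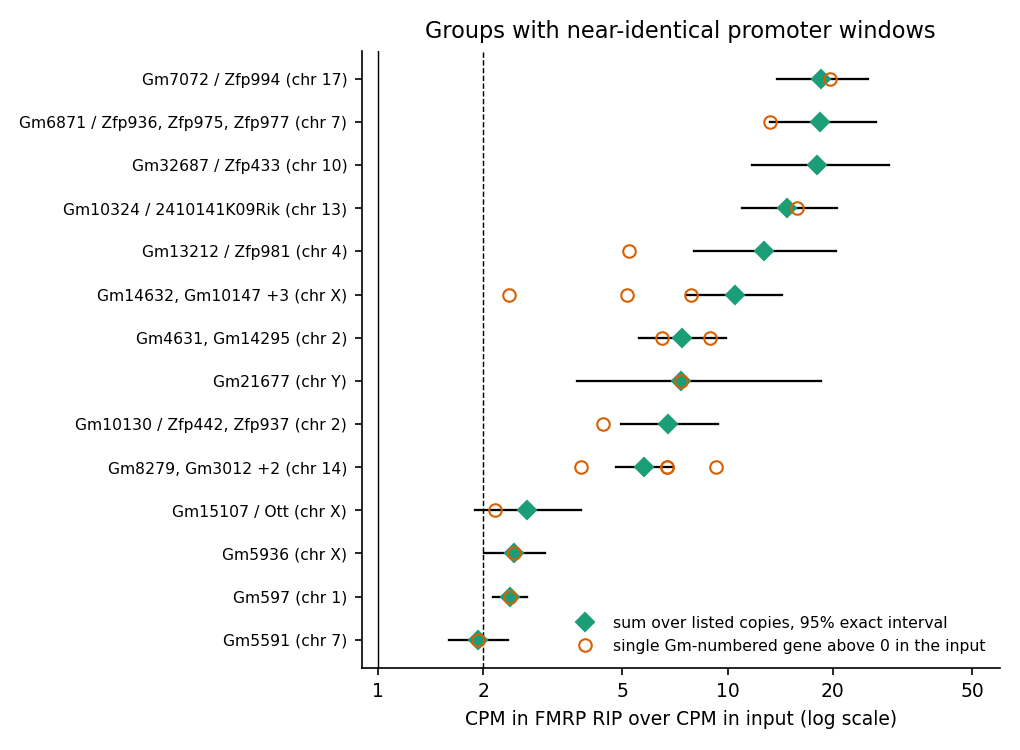
CPM ratio of FMRP RIP to input (x axis, log scale) for 14 groups of genes with like promoter windows, named by their Gm-numbered members and, after the slash, other listed members. Diamonds are sums over the listed copies with 95% exact intervals, open circles are single Gm-numbered genes above 0 in the input, the solid line marks a ratio of 1 and the dashed line a ratio of 2. Sums range from 1.93 for Gm5591 to 18.4 for the groups of Gm7072 and Gm6871. Every summed gene was on the list because it was called higher.

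The X chromosome held 14 of the 105 genes (13.3%) and 2.67% of the other listed genes, and 8 of the 14 had a log2 ratio above 1. The Y chromosome held 4, out of 11 listed genes there, all with split reads and all above 1. Among all listed genes 70.1% had a log2 ratio above 1, and neither chromosome was tested against that share. *Gm21677*, which carries the synonym *Rbmy1a1* of a germ cell RNA-binding protein, had 8.41 and 73.37 reads and a log2 ratio of 1.24, and 8 other genes have a like window. *Gm15107*, an X-linked gene with the synonym *Ott-like*, had 23.05 and 59.09 reads and 0.58, and with *Ott* the CPM ratio was 2.66 (1.89 to 3.82).

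Of the 13 listed genes at 0 in the input, 6 were Gm-numbered, and all of them held split reads. Beside *Gm32687*, *Gm14632* and *Gm10147*, they were *Gm28035* at 1.42 CPM in the RIP, *Gm27029* at 1.39 and *Gm21497* at 1.12, or 14.6-, 14.3- and 11.5-fold over the floor. *Gm21820*, *Gm21750* and *Gm8011* had 1.32, 2.37 and 2.90 input reads, so their ratios are poorly fixed. Over all 105, the interval of the CPM ratio lay wholly above 2 for 72 genes (68.6%, against 67.1% of all listed genes) and included 1.5 for 14 (13.3%, against 10.5%), shares near those of the whole list.

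Tissue markers could be checked only where they were called higher. Spermatocyte genes listed were *Sycp1*, *Sycp2* and *Spata16*, 3 of 7, and of 8 spermatid genes only *Akap4*, of the sperm fibrous sheath, at 752.4 CPM in the input. None of the markers of spermatogonia, Sertoli, Leydig or peritubular cells or of macrophages was on the list, and their levels were not analysed here. Fewer cells of a type and less RNA per cell cannot be told apart in such bulk lysates. All listed genes together held 14.2% of the input library but 55.2% of the RIP library, so every log2 ratio is relative to a library whose makeup differed.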

How the data were processed

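Per the labels and the study's methods, RNA of testis lysate was sequenced as paired-end libraries before and after precipitation of FMRP. The submitters' processing notes name STAR and the builds GRCm38 and mm10; the counting tool and annotation release are not given in the sources used here. The authors deposited CPM values per gene for genes they called higher, beside columns of their own fold changes and p-values from edgeR, which were not used. Genes outside that list were not analysed here.

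The deposited CPM values move in steps of 0.01 read, which gave the library totals. Of all nonzero values, 78.4% (input) and 78.8% (FMRP RIP) came out whole within 0.005 read. No count test was run, because the values are CPM and each group has 1 library. A pseudocount of 1 CPM was added before log2. The floor of 3 reads is 0.0972 CPM in the input. Intervals come from rounded reads, do not cover the division of reads between genes, and treat PCR duplicates as independent.

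Of the 105 genes, 67 matched RefSeq (64 by symbol, 3 by synonym), 8 of them not as protein-coding, and all 66 matched on a chromosome overlapped their RefSeq position. Promoter windows, 250 bases before to 50 after a start, were held by 55 genes and compared with BLAST+ 2.17.0 over at least 240 bases. Identical split values in another row also counted as a copy. An overlap is at least 1 shared base. The division into whole and split reads was made after the values were seen. The copy rule was planned on proteins, for which no table was used here.

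Named genes were, among those with at least 100 reads over both libraries, the 10 highest and 5 lowest log2 ratios and the 10 highest levels in the FMRP RIP, with genes at 0 in the input, overlapping another listed gene or with a listed copy; others named were chosen after their values were seen. The genes and lists were chosen with earlier results of these data known. Python 3.11.15, pandas 2.3.3 and scipy 1.17.1 were used, and the recovery of totals and intervals was tested on simulated data. Alternatives covered the pseudocount, scaling, filters and classes.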

Additional observations from a re-analysis of the deposited data

How the results depend on the processing

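With 1 library per group, no replicate could be left out. No paired analysis was possible because there is only 1 input and 1 RIP library. No setting could turn a direction, since each listed gene was called higher and a shared pseudocount or an upward scaling keeps the sign; sizes followed the pseudocount. With 5 CPM the median log2 ratio was 0.66, with 33 genes above 1 and 57 at least 1.5-fold higher, and with the smallest pseudocount tried the median was 2.06. Without a pseudocount, over 99 genes above 0 in both libraries, it was 2.11. Scaling to reads on genes that are not listed, a factor of 1.92 or 0.94 on the log2 scale, gave a median of 2.08 and all 105 above 1. Counts fell where fewer genes were left, with 35 above 1 and 52 at least 1.5-fold higher among 58 with at least 1 CPM in both libraries, and 25 and 34 among 38 with neither overlap nor copy. An alternative chosen after seeing the data, the 27 genes with whole reads, gave a median of 1.92, with 20 and 26. Of 230 values of named genes under other pseudocounts or scaling, 117 moved by more than their counting interval. Low input reads limit the ratios of genes under 1 CPM.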
